A study of Miniopterus schreibersii with 14 samples.

Results

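In embryos of the bent-wing bat Miniopterus schreibersii, 60 assembled transcript components were higher in the wing-forming region of the S15-17 autopod than in both the thumb side and the foot. The autopod is the hand or foot end of the developing limb. The members were chosen by their measured scores in the 6 S15-17 libraries, where a score is the authors' normalized read count for a component, rounded to a whole number. A component needed a mean score of at least 50 over those 6 libraries. Its selection score was then the smallest of 4 log2 ratios of score + 1. These set wing digits against digit I and against the foot digits, and wing interdigital tissue against the tissue beside digit I and against that of the foot. The 60 highest were taken, after 3 components that the rule sets aside, out of 12717 that it could have taken and 64618 in the table.

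The table names components by assembly number and does not pair them with genes. None matched the RefSeq table of 22775 Miniopterus schreibersii genes (0 identifiers found), so neither gene names and roles nor sequences are given here. Several components can come from 1 transcript. No member shares its assembly number with another member, and 3 share it with components outside the 60.

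Digits II-V of the bat hand lengthen greatly to carry the wing, and the tissue between them persists as wing membrane. The thumb and the toes stay short and free, and the tissue between them largely regresses. Earlier, the limb bud is patterned from anterior to posterior, and the thumb forms at its anterior edge, next to the longer digits behind it.

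Each of the 14 dissected parts had 1 library, at 4550754 to 7648427 reads, and the labels name no treatment, genotype or number of embryos. At S14, forelimb and hindlimb buds were each cut into an anterior, a middle and a posterior part. At S15-17 the parts were digit I and the interdigital tissue I-II (the thumb side), digits II-V and interdigital tissue II-V (the wing region), and the digits and interdigital tissue of the foot. The fetal pair was metacarpals of digits II-V and metatarsals of digits I-V, so the foot parts include digit I and the wing parts do not. No part has a replicate library, and differences between parts, embryos and libraries cannot be told apart. In these bulk samples, fewer cells of a type and less RNA per cell cannot be told apart either. The dissected tissues could not be checked against marker genes, since the components carry no gene names.

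The 2 highest members stood well apart from the other 58 in the libraries that chose them. Component comp14349_c0 scored 170 in wing digits and 187 in wing interdigital tissue, while its thumb-side scores were 19 and 6 and its foot scores 3 and 11. Component comp7027_c0 scored 184 and 415 in the wing region, with thumb-side scores of 11 and 17 and foot scores of 21 and 14. In the S15-17 libraries of the thumb side and foot, which also chose them, both were scarce rather than merely lower. Their selection scores, 3.10 and 3.07, are log2 ratios of over 8-fold in all 4 comparisons.

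Most other members differed by far less. Only 7 of the 60 had a selection score of at least 1, a 2-fold difference, while 41 lay between 0.5 and 1 and 12 below 0.5. The last member taken, comp5961_c0 at 0.453, scored 191 and 155 in wing digits and interdigital tissue, thumb-side scores of 100 and 98, and foot scores of 118 and 113. The first component left out, comp4137_c0 at 0.452, scored 1499 and 743, against 912 and 543 and against 852 and 479. Nothing in the scores parts the members from the components that follow them. The ratio that came out smallest was wing against foot digits in 21 members, wing against thumb-side interdigital tissue in 21, wing against foot interdigital tissue in 11 and wing digits against digit I in 7.

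As a set the members were of low abundance in the libraries that chose them. Their median mean score over the S15-17 libraries was 94.8, against 306 for all components the rule could take, and 31 of the 60 (51.7%) lay under 100, against 18.1%. Ratios of low scores vary more with counting error, so the rule can favour scarce components. How far this placed members in the set was not tested. The weakest member held 28 reads in a wing library and the fewest reads in any thumb-side or foot library were 2. Across members the score ran from 49 through a median of 148 to 6346 in wing digits. In wing interdigital tissue it ran from 53 through 156 to 6452. The highest of both was comp879_c0, with thumb-side scores of 3117 and 3492 and foot scores of 2736 and 2703. It is named for its abundance after its values were seen.

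**Figure D1:**
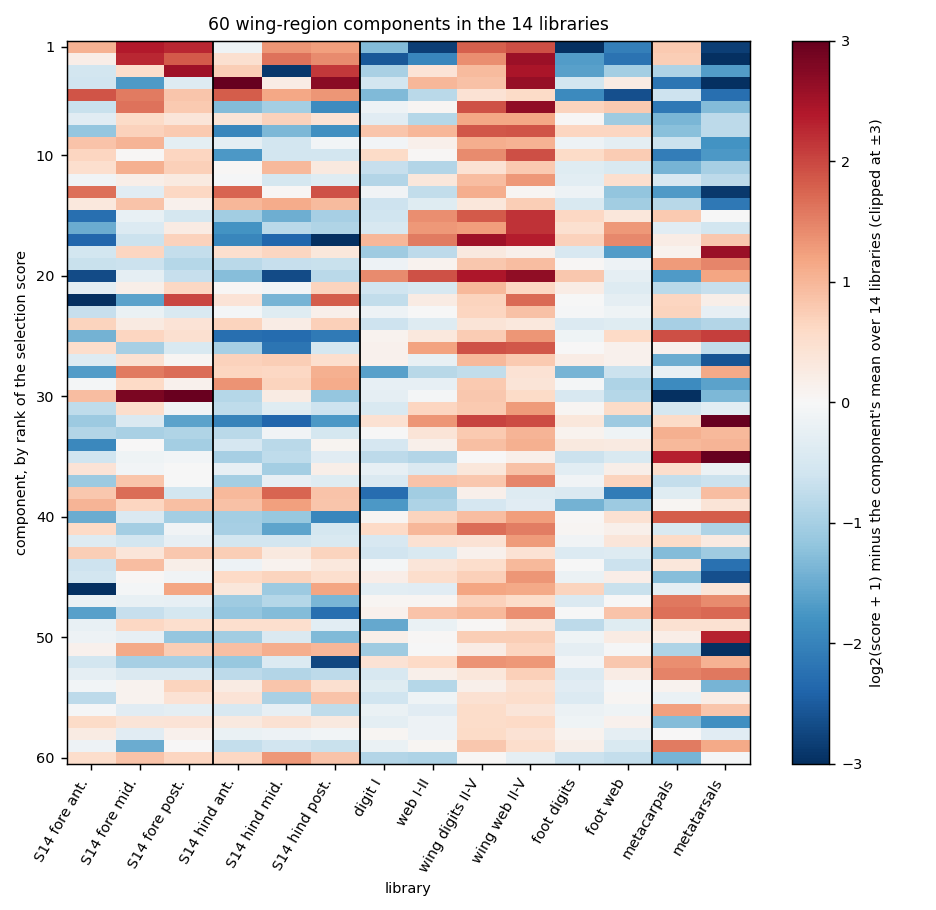
Scores of the 60 members (rows, by rank of selection score) in the 14 libraries (columns), as log2(score + 1) minus each member's mean over the 14 libraries. The 2 wing columns are high by choice of the members. The bud and fetal columns, which did not choose them, differ from member to member.

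The S14 buds, which played no part in the choice, show whether the limb difference was already present at the earlier stage. The members were on the whole slightly higher in forelimb than hindlimb buds. The log2(score + 1) difference, averaged over the 3 matched bud parts, had a median of 0.15 over the 60 members, against -0.03 over the 12717 components the rule could take. Forelimb was higher in all 3 pairs for 16 members (26.7%), against 14.3% of the components the rule could take. It was lower in all 3 for 11 (18.3%), against 21.2%. For this count the members' share was above the background only in the forelimb direction.

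A few members had wide forelimb differences in the buds. The mean difference passed 2-fold toward forelimb in 7 members (11.7%), where 0.731% of the components the rule could take did. It passed 2-fold toward hindlimb in 2 members, comp4463_c0 and comp3720_c0 (3.33%), against 0.889%. In comp3720_c0 this rested on the anterior pair, at -4.07, with -0.23 and 0.20 in the others. Of the 7 toward forelimb, comp18137_c0, named here for its low scores, held 2, 9 and 24 in forelimb and 3, 2 and 0 in hindlimb buds. Its log2 differences were -0.415, 1.74 and 4.64, so its mean rested mainly on the posterior pair and the anterior pair went the other way. The 7 split into 5 of the 31 members with a mean score under 100 and 2 of the other 29. The shares among all components the rule could take were 1.3% and 0.605% in those bands, a split chosen after seeing the data. All 3 forelimb buds lay above all 3 hindlimb buds in 8 members (13.3%, against 8.1%), and all below in 6 (10%, against 12.5%).

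The widest forelimb difference in the buds belonged to comp12931_c0. It scored 129, 486 and 538 in anterior, middle and posterior forelimb buds and 37, 81 and 30 in the hindlimb buds. The forelimb and hindlimb scores did not overlap, with means of 384 ± 223 and 49.3 ± 27.6 (SD, n = 3 bud parts each). Component comp2809_c0 scored 176, 733 and 657 in the forelimb buds and 98, 94 and 107 in the hindlimb buds, again with no overlap. In the hindlimb it was even along the bud, and in the forelimb the anterior part was the lowest. The log2 difference was 2.82 (SE 0.48) for comp12931_c0 and 2.13 (SE 0.45) for comp2809_c0, each higher in 3 of 3 pairs, with adjusted p = 0.42 and 0.46 in limma.

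Other members had the opposite difference. Component comp4463_c0 scored 150, 69 and 174 in forelimb buds and 1825, 267 and 1492 in hindlimb buds, with every forelimb score below every hindlimb score. The log2 difference was -2.88 (SE 0.34, limma adjusted p = 0.40). Component comp13345_c0 was the next lowest with 1 sign in all pairs, at 78, 122 and 88 against 207, 129 and 176, a difference of -0.82 (SE 0.30, limma adjusted p = 0.47). Its middle parts were close together. Both members were by rule higher in the wing region than in the foot at S15-17.

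The strongest member by selection score, comp14349_c0, differed evenly between the limbs. It scored 100, 254 and 235 in forelimb buds and 44, 123 and 115 in hindlimb buds. Its log2 difference was 1.17, 1.04 and 1.02 in the 3 pairs, or 1.08 ± 0.08 (SD, n = 3 pairs), with a limma adjusted p of 0.40. The middle and posterior hindlimb buds lay above the anterior forelimb bud, so the limbs overlapped although every pair differed alike. Component comp7027_c0, so similar at S15-17, scored 80, 333 and 249 in the forelimb buds, with 96, 215 and 187 in the hindlimb buds. Its difference of 0.26 (SE 0.22, limma adjusted p = 0.64) did not hold in the anterior pair, which went the other way.

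In limma with the bud part as block, none of the 60 members passed an adjusted p of 0.05, nor did any of the 20429 components tested (0 called, 0%), with a smallest adjusted p of 0.0561. At an unadjusted p under 0.05 there were 8 members higher in forelimb (3.85% of all tested were) and 5 lower (6.86%). Fitted to recovered reads with voom weights, limma called 5 members higher (0.441% of all tested) and 1 lower (0.612%). The 5 were comp12931_c0 (adjusted p = 0.00047), comp879_c0 (0.00085), comp2809_c0 (0.001), comp2922_c0 (0.0084) and comp14349_c0 (0.019), and the 1 lower was comp4463_c0 (8.6e-06). Robust variance shrinkage in limma called comp14349_c0 and comp2922_c0 higher (0.284% of all tested) and comp4463_c0 lower (0.45%). After centring the libraries on their median, comp4463_c0 was the 1 member called. For these members the call thus depended on the fit, and the cause was not tested.

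**Figure D2:**
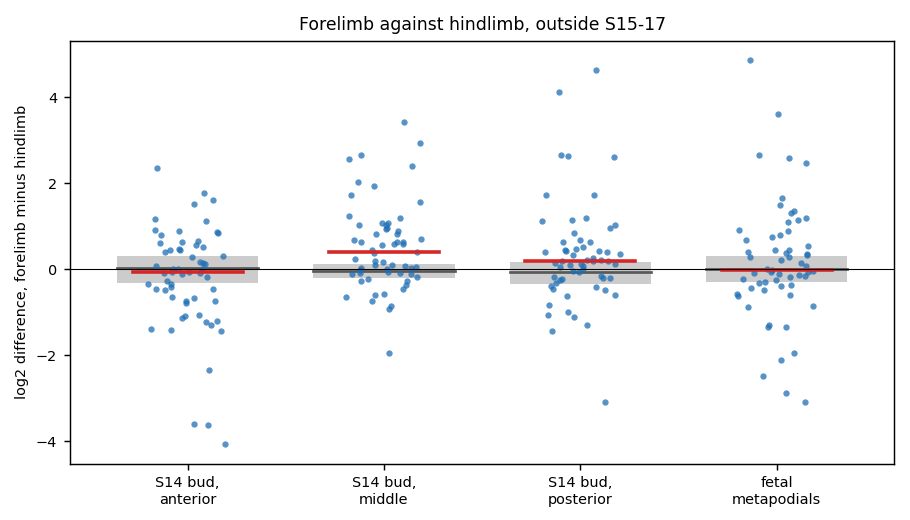
Forelimb minus hindlimb log2(score + 1) of the 60 members (blue points, spread sideways at random) in the 3 parts of the S14 bud and in the fetal pair. Red lines are the members' medians, -0.06, 0.39, 0.18 and -0.01; grey boxes are the quartiles and grey lines the medians of all components the rule could take.

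The small forelimb lead in the buds lay in the middle and posterior parts. The members' median log2 difference was 0.39 in the middle part, where 40 members were higher in forelimb and 19 lower, and 0.18 in the posterior part, with 38 and 22. In the anterior part it was -0.06, with 27 and 31. Over the 12717 components the rule could take, the medians in the middle, posterior and anterior parts were -0.04, -0.06 and 0.03. Of these components, 5407, 5445 and 6632 were higher in forelimb, and 7193, 7163 and 5990 lower. Leaving out the anterior pair raised the members' median over pairs to 0.33, and leaving out the middle or posterior pair lowered it to 0.09 and 0.10.

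Along the anterior to posterior axis, many members were lowest in the anterior part of the forelimb bud, from which the thumb side forms. In 34 of the 60 (56.7%), the middle and the posterior part both scored above the anterior part of the forelimb bud, against 32.5% of the components the rule could take. In 15 (25%) both scored below it, against 41.3%. In the hindlimb bud the middle and posterior parts scored above the anterior part in 19 members (31.7%), against 38%. Both scored below it in 8 (13.3%), against 21.6%, so both shares were under the background there. Each count rests on 1 anterior library, and the difference between the limbs was not tested. The median posterior minus anterior log2 difference was 0.31 in forelimb and 0.10 in hindlimb, against -0.06 and 0.04 over the components the rule could take.

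Posterior exceeded anterior in both limbs in 26 members (43.3%, against 28.3% of the components the rule could take) and was below it in both in 9 (15%, against 28.2%). The steepest was comp3720_c0, which scored 16, 69 and 860 from anterior to posterior in the forelimb bud and 285, 81 and 749 in the hindlimb bud. Its posterior part was the highest in each limb, while the anterior parts lay far apart. In the same order comp8858_c0 scored 11, 111 and 268 in the forelimb bud and 147, 54 and 267 in the hindlimb bud, a like pattern with nearly equal posterior scores. The mean log2 differences were 3.53 (SE 1.10) and 2.67 (SE 1.15), both with a limma adjusted p of 0.95. Most of each came from the forelimb, where the difference was 5.66 for comp3720_c0 and 4.49 for comp8858_c0, against 1.39 and 0.86 in the hindlimb.

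The 2 members with the highest selection scores shared this order in a weaker and more even form. In comp14349_c0 the posterior part exceeded the anterior by 1.22 in forelimb and 1.37 in hindlimb on the log2 scale, and in comp7027_c0 by 1.63 and 0.96. Lower in the posterior part were comp10799_c0, at 40, 29 and 29 in forelimb and 26, 44 and 8 in hindlimb, and comp1699_c0, at 391, 309 and 188 and at 371, 235 and 264. Their mean log2 differences were -1.02 (SE 0.64) and -0.77 (SE 0.24), each with a limma adjusted p of 0.95. The first rests on low scores.

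limma with limb as block called 0 of 20429 components between posterior and anterior parts (0%), no member among them, with a smallest adjusted p of 0.947. At an unadjusted p under 0.05 it found 5 members higher in posterior (2.19% of all tested were) and 1 lower (1.69%). Voom on recovered reads called 16 components and robust shrinkage 5, without a member in either. The comparison rests on 2 pairs. It has few degrees of freedom, as does the limb comparison, which uses the same 6 libraries.

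The S15-17 scores stood in different places against the S14 buds from member to member. The share given second in each case is that of the components the rule could take. Set against the 3 forelimb buds, the 2 wing scores lay above all of them in 35 members (58.3%, against 21.2%). They lay below all of them in 4 (6.67%, against 31.9%). Neither held in 21 (35%, against 47%), and both wing scores lay within the bud range in 13 (21.7%, against 12.8%). The foot scores lay above all 3 hindlimb buds in 24 members (40%, against 23.1%). They lay below all of them in 21 (35%, against 34.9%). The thumb-side scores lay below all forelimb buds in 19 (31.7%), near the 34.4% of the components the rule could take. They lay above all of them in 13 (21.7%, against 24.5%). These S15-17 scores chose the members, so a high wing and a low foot or thumb side were favoured by the choice.

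In 12 members (20%, against 2.68% of the components the rule could take) the thumb side and the foot lay below every bud of their limb while the wing scores lay neither all above nor all below the forelimb buds. In 7 of them (11.7% of the members, against 0.354%) both wing scores lay within the bud range. The thumb-side and foot scores entered the choice, so these shares are a description. The 2 highest members by selection score were among the 12. For comp14349_c0 the wing scores of 170 and 187 lay inside the forelimb bud range of 100 to 254, while the foot scores of 3 and 11 lay below the lowest hindlimb bud, at 44. The log2 ratio of mean S15-17 to mean bud score was -0.14 in the wing region, -3.87 on the thumb side and -3.57 in the foot. For comp7027_c0 these ratios were 0.44, -3.88 and -3.17, and its wing interdigital score of 415 lay above all 3 forelimb buds.

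In another 12 members (20%, against 9.49%) both wing scores lay above every forelimb bud while the foot scores did not rise above all hindlimb buds, and in 10 (16.7%, against 9.55%) the wing region, the thumb side and the foot all lay above their buds. The widest ratios of wing to bud belonged to scarce bud components. Component comp17283_c0 scored 2, 15 and 11 in forelimb buds and 103 and 122 in the wing region, a log2 ratio of 3.46. Component comp6811_c1 scored 16, 26 and 11 in forelimb buds and 146 and 139 in the wing region, a log2 ratio of 2.94. On the thumb side these members stood at 51 and 72 and at 49 and 90, also above all 3 forelimb buds.

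At the other end, comp12931_c0 fell from 129, 486 and 538 in forelimb buds to 120 and 101 in the wing region, a log2 ratio of -1.79. Its foot scores of 48 and 37 stayed near the hindlimb bud scores of 37, 81 and 30. Component comp7717_c0 went from 279, 217 and 260 to 97 and 109, a log2 ratio of -1.28, while its thumb-side scores were 41 and 72 and its foot scores 51 and 64. The rule took both, since the scores on the thumb side and in the foot were lower still.

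**Figure D3:**
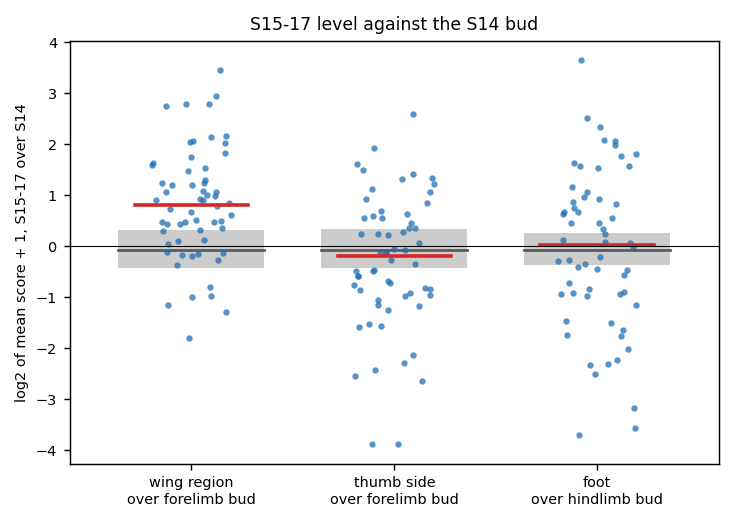
Log2 ratio of the mean S15-17 score + 1 to the mean S14 bud score + 1 of the same limb, for the 60 members (blue points) in the wing region, on the thumb side and in the foot. Red lines are the members' medians, 0.82, -0.20 and 0.03; grey boxes and lines are quartiles and medians of all components the rule could take. The foot points lie on both sides of 0, as do those of the components the rule could take, and all the S15-17 scores entered the choice.

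Within the wing region, the members leaned toward the interdigital tissue. In 38 of the 60 the wing interdigital score was the higher and in 20 the digit score was. Among the 12717 components the rule could take, the counts were 5635 and 7004. The members' median log2 ratio of digits to interdigital tissue was -0.16, against 0.05 over the components the rule could take. The members leaned the same way in the foot. There the interdigital score was the higher in 33 members and the digit score in 27, against 5279 and 7349 components the rule could take. The median log2 ratio in the foot was -0.08, against 0.06. All these libraries took part in the choice, so these are values without a test. The widest differences were those of comp4463_c0 and comp3911_c0. Component comp4463_c0 scored 1399 in interdigital tissue and 416 in digits, and comp3911_c0 scored 973 and 348. In the foot, comp4463_c0 also scored higher in interdigital tissue, at 268 against 154, as did comp3911_c0, at 87 against 57. Higher in digits were comp22571_c0, at 110 against 53, and comp3266_c0, at 421 against 292. Both kept that order in the foot, at 46 against 22 and at 279 against 88. On the thumb side comp22571_c0 kept it, at 47 against 30, while comp3266_c0 had the reverse, at 77 against 185.

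The fetal pair, likewise outside the choice, shows the limb difference in the long bones. The set as a whole had no common direction there. The fetal libraries hold metapodials and no interdigital tissue, so a change with stage and a difference in tissue cannot be told apart. The metacarpals scored higher than the metatarsals in 30 members (50%), against 49.8% of the components the rule could take, and the median log2 difference was -0.01. The members were nevertheless widely spread. Metacarpals were over 2-fold higher in 12 (20%, against 5.78%) and over 2-fold lower in 8 (13.3%, against 4.51%). Both shares also exceeded those among components of like abundance. Among members with a mean score under 100, 6 of 31 were higher and 5 lower, where 10% and 7.26% of such components were. There is 1 library on each side, so the comparison has no replicate check.

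The 2 highest members by selection score also led the fetal comparison. Component comp7027_c0 scored 116 in metacarpals and 3 in metatarsals, from 90 and 2 reads, a ratio of 36.1 (exact 95% interval 9.70 to 302, counting error only). Component comp14349_c0 scored 84 and 6, from 65 and 4 reads, a ratio of 13.0 (4.85 to 49.2). These 2 members were thus scarce in the fetal metatarsals, as they had been in the S15-17 foot. In the metacarpals both were below their S15-17 wing scores.

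In the opposite direction, comp6811_c1 scored 53 in metacarpals and 457 in metatarsals, a ratio of metatarsals to metacarpals of 8.64 (exact 95% interval 6.21 to 12.3, counting error only). Its metatarsal score was far above the foot scores of 45 and 16 at S15-17. Component comp17283_c0 scored 5 and 43, a ratio of 8.42 (2.93 to 33.1) from only 4 and 27 reads. These were also the 2 members with the highest ratios of wing to bud scores.

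Few members were higher in forelimb in all 3 periods. Forelimb was higher in all 3 bud pairs and in the fetal pair in 5 members (8.33%), near the 7.22% of components the rule could take. Of the 7 members over 2-fold higher in forelimb buds, comp14349_c0 was also over 2-fold higher in metacarpals and comp12931_c0 over 2-fold lower, at 6 against 26. Component comp2809_c0, so different between the limb buds, had 1801 in metacarpals and 1991 in metatarsals, both above all its earlier scores. Its limb difference was thus nearly absent in the fetal libraries, with a ratio of 0.904 (exact 95% interval 0.837 to 0.977, counting error only).

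Against the S15-17 wing region, most members were lower in the fetal metacarpals. The metacarpal score lay below both wing scores in 41 members and above both in 13, against 56.3% and 31.3% of the components the rule could take. The metatarsal score lay below both foot scores in 30 and above both in 23, against 58.3% and 31.6%. The wing scores were high and the foot scores low by choice, which favours these directions.

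**Figure D4:**
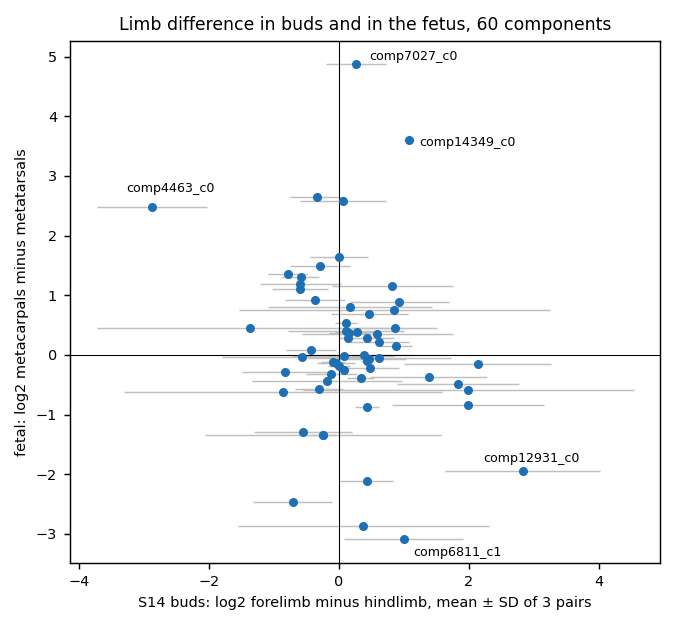
Limb difference of the 60 members in S14 buds (horizontal axis, mean ± SD of 3 pairs, log2) and in fetal metapodials (vertical axis, 1 library each, log2). Component comp14349_c0 lies at 1.08 and 3.60, comp12931_c0 at 2.82 and -1.95, and comp4463_c0 at -2.88 and 2.47.

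**Figure D5:**
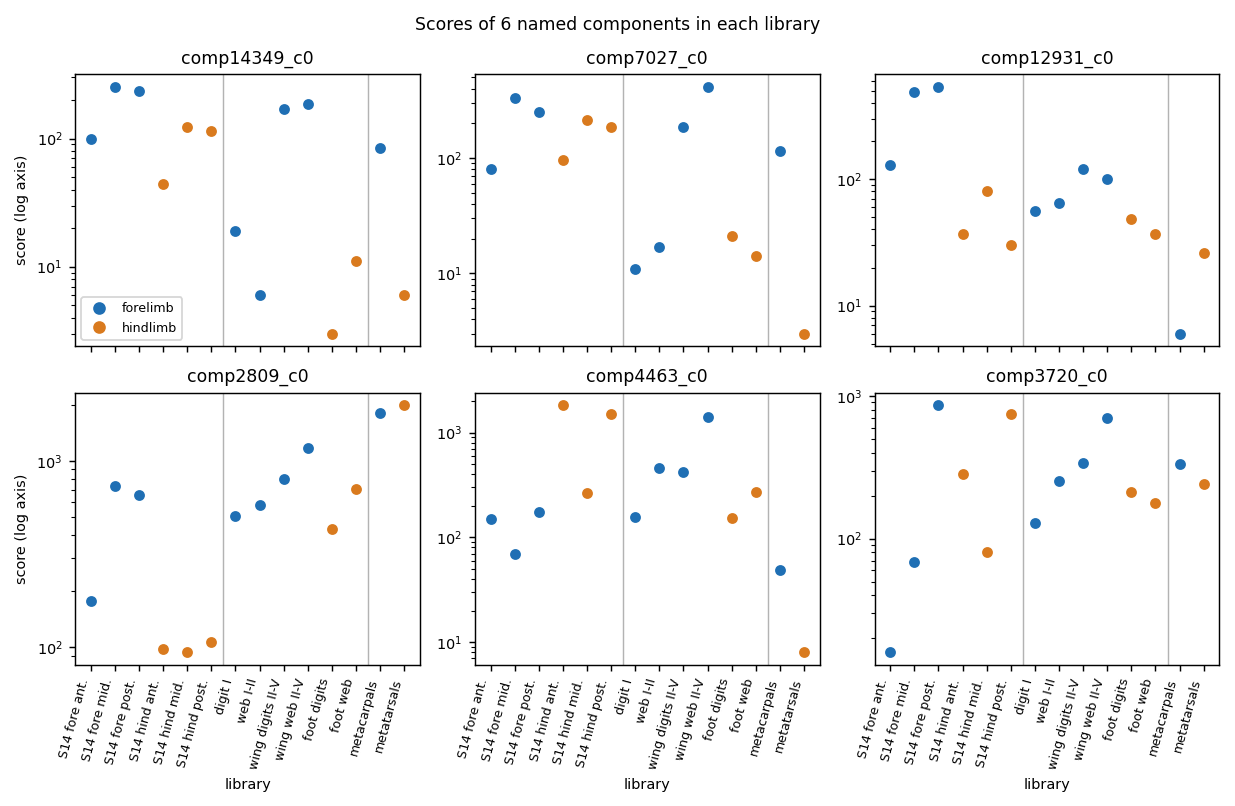
Scores of 6 named members in each of the 14 libraries on a log axis, forelimb in blue and hindlimb in orange. In comp14349_c0 the wing scores lie within the forelimb bud range and in comp7027_c0 1 of them lies above it, while the thumb side, foot and metatarsals lie low in both; the other 4 have limb differences that narrow or turn between periods.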

How the data were processed

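The authors deposited 1 table of scores for 64618 components in 14 libraries: normalized counts, rounded to whole numbers. CASAVA 1.8, RSEM and edgeR appear in the submitters' processing notes, with neither role nor order. Assembly and normalization methods are not given in the sources used here. In each library the scores up to 2000 fell on rounded multiples of 1 step (1.29 to 2.23), matched within 0.5. Dividing by the step gave recovered reads, used for voom and for exact 95% intervals, which cover counting error only.

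The tests were limma (version 3.58.1, R 4.3.3) fits with a trended prior to log2(score + 1), blocked by bud part or by limb. The 20429 components averaging at least 10 over the libraries entered them, all 60 members included. Adjusted p-values are Benjamini-Hochberg over these, two-sided. The spread behind them is how far limb differences varied between bud parts. It does not cover the spread between embryos, since no part has a replicate library. The fits were also run on simulated reads with known fold changes. Those reads had no other differences between bud parts, unlike these buds, so they check the fitting only. Python 3.11.15, pandas 2.3.3, scipy 1.17.1 and matplotlib 3.10.9 gave the counts and plots. The members and the tests were chosen with earlier results of these data known. Named are the 2 highest and 2 lowest members per comparison, among those with 1 sign in every pair for the bud tests, and the members at either end of the selection score. A member named outside that rule is marked as such or appears for its call under an alternative.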

Additional observations from a re-analysis of the deposited data

Results flagged for a closer look

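In 2 members the limb difference passed 2-fold one way in all 3 S14 bud pairs and the other way in the fetal pair, and the difference between the periods was not tested. For comp4463_c0 the log2 difference was -2.88 in the buds and 2.47 in the fetal pair, from scores of 49 in metacarpals and 8 in metatarsals (38 and 5 reads). For comp12931_c0 it was 2.82 in the buds and -1.95 in the fetal pair, where it held 5 and 16 reads. By the mean of the 3 bud pairs, its direction of change held in 1 member (1.67%). Among the components the rule could take, 0.102% had it. The share with the direction of comp4463_c0 was not counted.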

How the results depend on the processing

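In the S14 limb comparison limma called 0 components, and 0 in each fit without 1 pair. The count was 21 after centring libraries on their median (comp4463_c0 the only member), 2 at a pseudocount of 5, 8 with no block, 150 with robust shrinkage and 215 with voom. Between posterior and anterior parts it called 721 with no filter, among them comp14349_c0, 5 with robust shrinkage and 16 with voom. The members' median posterior minus anterior difference was 0.134. It was 0.394 for the 30 highest by the selection score, and 0.104 to 0.307 with 1 limb left out. The members lower in forelimb in all 3 bud pairs were 7 rather than 11 with median-centred libraries. For these changes the cause was not tested. The fetal log2 differences of comp7027_c0, comp14349_c0 and comp17283_c0 moved by over 0.5 with a pseudocount of 5 and kept their sign. The other 51 alternatives for counts and medians stayed within 1.5 times or the spread between pairs, or 0.1 for the fetal pair. Low scores limit what can be seen, since 31 members have a mean score under 100.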
